A study of Mus musculus with 7 samples.

Results

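Transcripts of the NF-κB family were measured in neutrophils sorted from the injured liver. The 10 genes described were taken by symbol from the 16047 genes of the deposited table, and all 10 were found there. They encode the 5 subunits (Nfkb1, Nfkb2, Rel, Rela and Relb) and 5 inhibitors or feedback regulators of the pathway (Nfkbia, Nfkbie, Nfkbiz, Bcl3 and Tnfaip3).

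NF-κB is a family of transcription factors that act as dimers. In resting cells the dimers are held in the cytoplasm by I-κB proteins, and receptors for cytokines and for microbial or damage signals activate kinases that mark the I-κB proteins for degradation, so that the dimers enter the nucleus. There they induce inflammatory genes and, among them, the genes of their own inhibitors, which closes a negative feedback loop. A second, slower route runs through the kinase NIK and the processing of the Nfkb2 product, and yields dimers with RelB. In neutrophils the pathway is known for driving chemokine and survival genes.

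The mice were male C57BL/6 animals aged 8 to 12 weeks, and all of them received 300 mg/kg of acetaminophen, which causes acetaminophen-induced liver injury (AILI). The PBS group (4 livers) was injected with vehicle. The MC-21 group (3 livers) was injected with 400 µL of medium holding 29 µg/mL of MC-21, an antibody to CCR2 that depletes Ly6Chi monocytes, so the groups differ in both antibody and medium. Injections began 12 h before acetaminophen and were repeated every 24 h, and livers were taken at 24 h. From each liver 50000 CD11b+Ly6CloCX3CR1-GFP-Ly6G+ neutrophils were sorted, and the strain label names no GFP reporter allele. Replicates are the numbers in the sample labels (PBS 5 to 8, MC-21 2 to 4), and no number occurs in both groups.

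A library had 12376 to 13864 genes with any RPKM, and 1 RPKM in a transcript of 1 kb stood for 1.59 reads in the shallowest library (MC-21 replicate 3) to 3.96 in the deepest (PBS replicate 8). All 14 neutrophil markers were detected in every library, led by S100a9 with 12275 to 25041 RPKM, and 6 of the 14 had an unadjusted p under 0.05, all of them higher in MC-21 neutrophils. Of all genes tested, 3.59% were higher at such a p, and 1 of the 14 markers also had an adjusted p under 0.05. Endothelial markers were also present, with 474 to 1539 RPKM of Clec4g, and none of the 7 had an unadjusted p under 0.05. The same was true of the 6 hepatocyte and 2 eosinophil or basophil markers that were tested. In bulk libraries like these, fewer cells of a type and less RNA per cell cannot be told apart.

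The start regions of these genes were examined first, because several are classical targets of NF-κB itself. The RefSeq table of windows from 250 bases before to 50 after a transcript start (GRCm38.p6, a later build than that of the expression data) holds 10 windows for 7 of the genes. Nfkb1, Relb and Nfkbiz have none there. The 10-base NF-κB consensus (GGG, A or G, any 2 bases, 2 bases of C or T, then CC) was searched on both strands. It was present in 8 of the 10 windows and in 6 of the 7 genes, against 8.46% of all 32851 windows and 9.55% of the 27025 genes of the table. A stricter form (GGG, any 2 bases, then TTTCC) was present in 6 of the 10 windows and in Nfkb2, Nfkbia, Rel and Tnfaip3, against 1.63% of all windows. It allows any base after GGG, where the consensus has A or G, so in other genes it need not be a consensus match. In these 7 genes each of its matches was also a consensus match. The stretches below carry most of these matches and are shown because they differ in number, spacing and strand among the genes. Not printed are the match of Bcl3 and a match of Nfkb2 start 2, at bases -236 to -227 from that start. Each reads 5′ to 3′ on the strand of the gene, and capitals mark the consensus match or overlapping matches.
Nfkbia, chr12:55492657-55492686, minus strand, from 39 to 10 bases before the start: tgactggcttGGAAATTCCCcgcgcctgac
Nfkb2, start 1, chr19:46304688-46304718, plus strand, from 49 to 19 bases before the start: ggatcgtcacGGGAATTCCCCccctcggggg
Nfkb2, start 1, chr19:46304716-46304736, plus strand, from 21 to 1 bases before the start: ggggccgaaaGGGGCTTTCCc
Nfkb2, start 3, chr19:46305695-46305724, plus strand, from 235 to 206 bases before the start: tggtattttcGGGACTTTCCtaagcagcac
Rel, chr11:23771041-23771071, minus strand, from 102 to 72 bases before the start: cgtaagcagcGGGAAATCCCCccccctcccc
Nfkbie, chr17:45555584-45555613, plus strand, from 116 to 87 bases before the start: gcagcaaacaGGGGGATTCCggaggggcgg
Tnfaip3, start 2, chr10:19015516-19015545, minus strand, from 135 to 106 bases before the start: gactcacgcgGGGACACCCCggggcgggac
Tnfaip3, start 2, chr10:19015411-19015432, minus strand, from 22 to 1 bases before the start: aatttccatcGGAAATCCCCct

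Nfkb2 had the most matches of the 7 genes, at 4 separate positions over its 3 annotated starts. The match printed for start 3 also lies at bases 11 to 20 after start 2, so it is 1 site counted in 2 windows. In Nfkbia, Rel and the match nearest to the start of Tnfaip3, the stricter form reads on the strand opposite to the gene. The match of Bcl3 lies after the start, at bases 3 to 12. Rela, whose window has neither motif, and the window of Tnfaip3 start 1 differ from the rest only in that these letters are not in these 300 bases. A match is a description of sequence, and no binding was measured in this series.

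**Figure D1:**
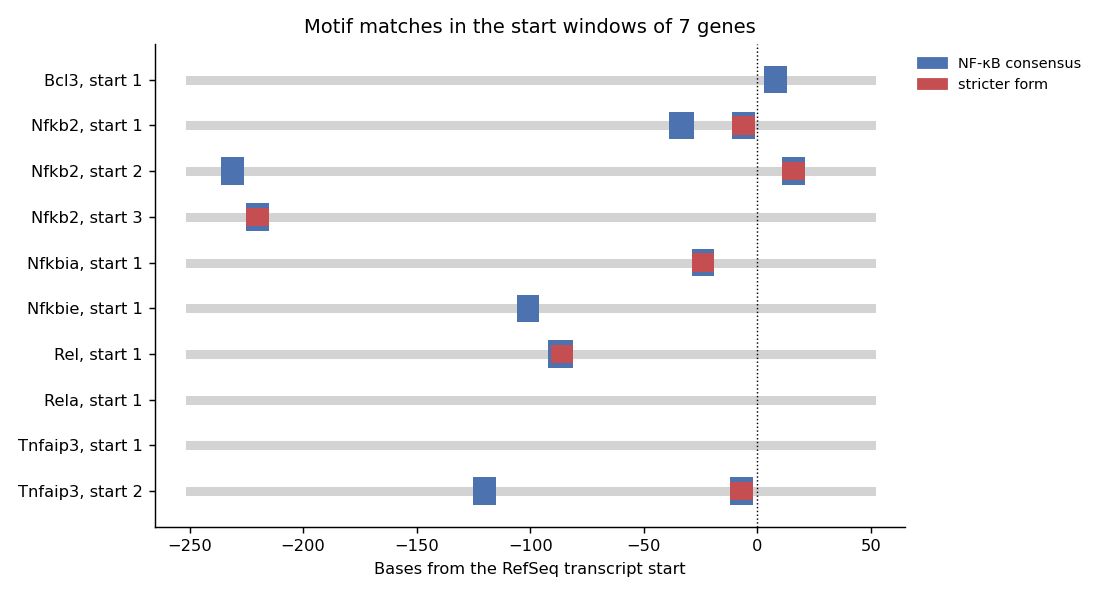
Positions of the NF-κB consensus (blue) and of the stricter form (red) in the 10 RefSeq start windows of 7 genes, drawn as bases from the transcript start (0, dotted line). Matches lie within 40 bases before the start in Nfkbia, Nfkb2 start 1 and Tnfaip3 start 2, and Rela and Tnfaip3 start 1 have none.

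All 10 transcripts were detected in all 7 libraries, with levels that ranged from about those of the most abundant transcripts to a few reads. Nfkbia, which encodes I-κBα, the main inhibitor that retains RelA dimers in the cytoplasm, ranked between 29 and 71 among all 16047 genes of a library. By mean RPKM, the order below it was Bcl3, Rela, Nfkbiz, Nfkb2, Tnfaip3, Nfkb1, Nfkbie, Relb and Rel. The libraries of Bcl3 (49.3 to 87.4 RPKM) all lay above those of Rela (29.9 to 47.5 RPKM). Bcl3 did overlap with Nfkbiz (up to 63.4 RPKM) and Tnfaip3 (up to 57.6 RPKM), and Tnfaip3 was above Bcl3 in MC-21 replicate 3. From Rela down to Relb each gene overlapped with its neighbour between libraries, so adjacent places in this run are not beyond the spread, while genes farther apart could be separate, as Rela and Nfkb2 (30.3 to 43.7 RPKM) were from Relb (13.7 to 24.7 RPKM). The order also differed between the groups, since Tnfaip3 was below Nfkb2 in every PBS library and above it in every MC-21 library. Rel, the subunit c-Rel, ranked between 7292 and 9493 and lay below every other gene in each library. RPKM divides by transcript length although reads of 3′ libraries come from the end of a transcript, so the levels, shares and ratios of different genes depend on this scale.

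The number of reads behind these values was read from the table, where the RPKM of a gene across libraries fell on whole multiples of 1 read for 9 of the 10 genes, to within 0.02 of a read. It was between 7 and 26 reads for Rel, 49 and 215 for Relb, 81 and 190 for Nfkbie, and at least 129 in every library for the others. Intervals from these reads cover counting error only.

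The comparison of MC-21 with PBS neutrophils asks whether NF-κB transcripts differ when Ly6Chi monocytes have been depleted. With limma on log2(RPKM + 1), 0 of the 10 genes had an adjusted p under 0.05, where 0.625% of the 9594 genes tested did. An unadjusted p under 0.05 was reached by 4 of the 10 genes, where 14.7% of all genes did. Nfkb2 and Relb were lower in MC-21 neutrophils (11.2% of all genes were lower at this p), and Nfkbia and Tnfaip3 were higher (3.59% of all genes). In 2 of the 10 genes, Nfkb2 and Tnfaip3, the values of the groups did not overlap, where 13.3% of all genes did not. None of the 10 passed the study's own cutoffs, an unadjusted p under 0.05 together with a 2-fold change, which 2.70% of all genes passed. The median log2 fold change of the 10 genes was -0.02, with 5 genes above and 5 below 0, and that of all genes tested was -0.15. This general shift matters for what follows, since centring each library on its median added about 0.16 to each log2 fold change. The split of the unadjusted calls then went from 2 higher and 2 lower to 2 higher and 0 lower.

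**Figure D2:**
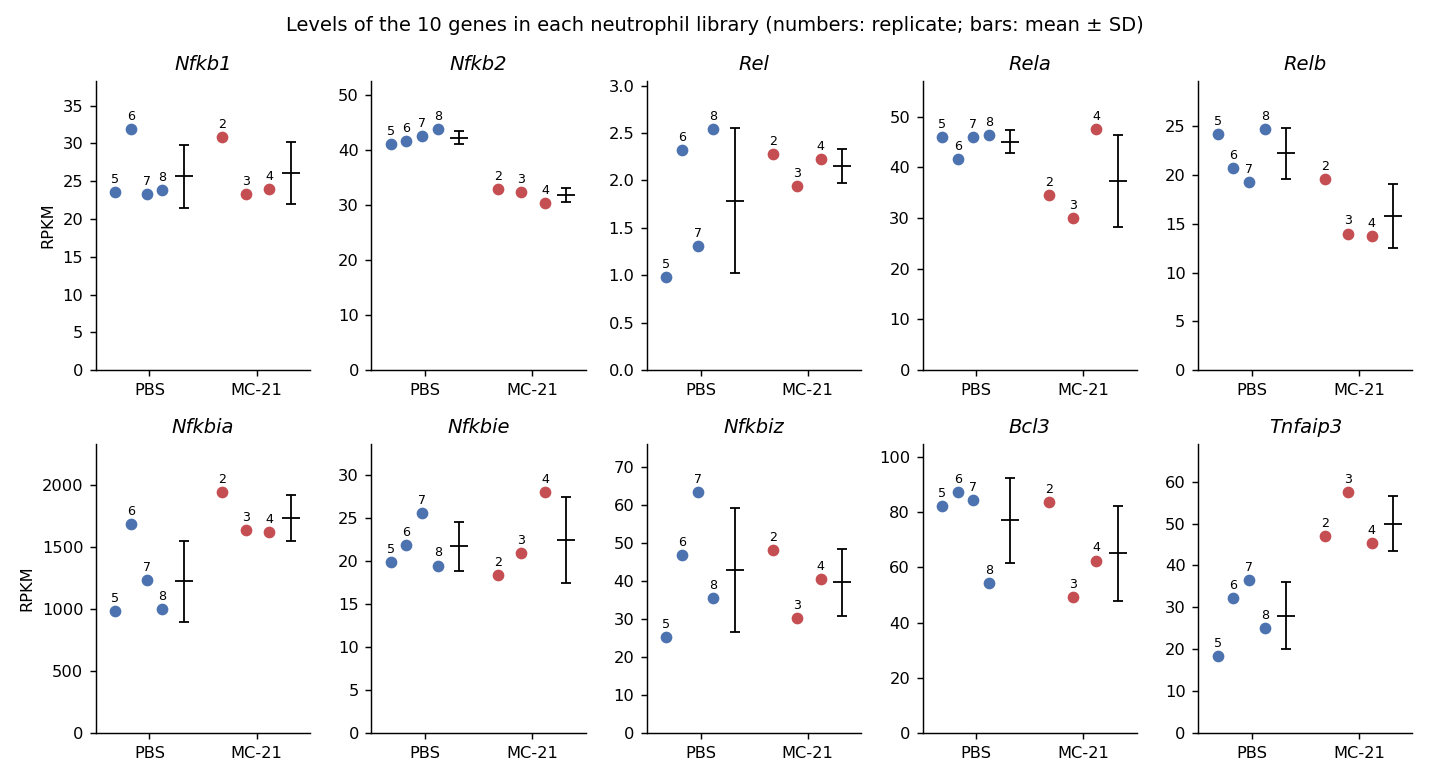
RPKM of the 10 genes in each library of PBS (blue) and MC-21 (red) neutrophils, numbered by replicate, with the mean ± SD of each group in black (n = 4 and 3). Nfkb2 and Tnfaip3 are the panels in which the groups do not overlap, and in Nfkb1 PBS replicate 6 and MC-21 replicate 2 stand above the other 5 libraries.

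Among the subunits, Nfkb2 showed the steadiest values. It encodes p100, which is processed to p52, and lies on the plus strand of chromosome 19 (mm9 chr19:46379227-46386580). Nfkb2 had 41.1, 41.5, 42.5 and 43.7 RPKM in PBS replicates 5 to 8 and 32.8, 32.3 and 30.3 RPKM in MC-21 replicates 2 to 4. Every MC-21 library was below every PBS library. The level in PBS neutrophils was 1.32-fold that in MC-21 neutrophils (log2 fold change -0.40, 95% confidence interval -0.69 to -0.11, unadjusted p = 0.0118, adjusted p = 0.217 with limma). Its SD between libraries was 2.76% of the mean in PBS and 4.24% in MC-21 neutrophils, which is less than the 4.81% and 6.36% that counting 169 to 570 reads alone gives. A test that takes its error from this gene alone would thus use a spread below the counting error, whereas limma draws on the spread of all genes. The unadjusted p was under 0.05 in 13 of 14 alternatives and was 0.109 with libraries centred on their median. The study had singled out Nfkb2 from these same libraries, so its difference is not independent evidence of a direction. The annotated gene shares 4 bases with Psd on the other strand.

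Relb encodes RelB, the partner of p52 in the second, NIK-dependent route, and lies on the minus strand (mm9 chr7:20191566-20214787). Relb had 24.2, 20.7, 19.3 and 24.7 RPKM in PBS replicates 5 to 8 and 19.6, 14.0 and 13.7 RPKM in MC-21 replicates 2 to 4. MC-21 replicate 2 lay within the PBS values and the other 2 below them. The log2 fold change was -0.48 (95% confidence interval -0.88 to -0.08, unadjusted p = 0.0245, adjusted p = 0.274 with limma). Behind the lowest values stood 49 and 84 reads, and the counting interval of MC-21 replicate 3, 10.4 to 18.5 RPKM, reached into that of PBS replicate 7, 15.9 to 23.2 RPKM. The unadjusted p was above 0.05 in 6 of 14 alternatives. These were quantile normalization, median centring (log2 fold change -0.32, unadjusted p = 0.0969 with limma), and the fits without MC-21 replicate 3, MC-21 replicate 4, PBS replicate 5 or PBS replicate 8, with log2 fold changes between -0.44 and -0.40.

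Rela encodes p65, the main activating subunit of the fast route (mm9 chr19:5637483-5648130, plus strand). Rela had 46.1, 41.7, 46.1 and 46.3 RPKM in PBS replicates 5 to 8 and 34.5, 29.9 and 47.5 RPKM in MC-21 replicates 2 to 4. The highest value of all and the 2 lowest were in the MC-21 group. The log2 fold change was -0.29 (95% confidence interval -0.68 to 0.10, unadjusted p = 0.128 with limma). Single MC-21 libraries moved this value in both directions. Without MC-21 replicate 4 the log2 fold change was -0.47 (unadjusted p = 0.0153, adjusted p = 0.346 with limma) and the groups did not overlap, and without MC-21 replicate 3 it was -0.15 (unadjusted p = 0.437 with limma).

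Nfkb1 encodes p105, the precursor of p50 (mm9 chr3:135247619-135354511, minus strand). Nfkb1 had 23.6, 31.9, 23.3 and 23.8 RPKM in PBS replicates 5 to 8 and 30.9, 23.3 and 24.0 RPKM in MC-21 replicates 2 to 4. One library of each group was high, and the other 5 lay between 23.3 and 24.0 RPKM. The log2 fold change was 0.02 (95% confidence interval -0.37 to 0.42, unadjusted p = 0.892 with limma). Rel (mm9 chr11:23641514-23670970, minus strand) had 0.980, 2.32, 1.31 and 2.54 RPKM in PBS replicates 5 to 8, or 7, 20, 9 and 26 reads. In MC-21 replicates 2 to 4 it had 2.27, 1.95 and 2.23 RPKM, or 21, 8 and 16 reads. The MC-21 values of Rel lay inside the PBS range, and at this depth a difference was not detectable (log2 fold change 0.22, 95% confidence interval -0.35 to 0.78, unadjusted p = 0.412 with limma).

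The make-up of the subunit pool was described as the percentage of each gene in the summed RPKM of the 5. Rela had 32.9% ± 2.00 in PBS (SD, n = 4) and 32.9% ± 6.50 in MC-21 neutrophils (SD, n = 3). Nfkb2 had 30.8% ± 0.921 and 28.3% ± 3.15, and Relb 16.2% ± 1.65 and 13.9% ± 2.33, in the same order of groups. Nfkb1 had 18.7% ± 2.91 and 23.0% ± 2.65. All 4 overlapped between the groups. Rel had 0.721 to 1.80% in PBS and 1.89 to 1.92% in MC-21 neutrophils, which do not overlap but rest on 7 to 26 reads a library. With RPKM multiplied by transcript length the order within the pool differed, and Nfkb1 was then the largest part in MC-21 replicate 2 (33.0%, against 27.3% for Nfkb2 and 24.4% for Rela) and above Rela in PBS replicate 6 and MC-21 replicate 3. The log2 ratio of Nfkb2 to Nfkb1 was 0.71 ± 0.23 in PBS and 0.29 ± 0.18 in MC-21 neutrophils, and it overlapped between the groups through PBS replicate 6 (0.37) and MC-21 replicate 3 (0.45). The log2 ratio of Relb to Rela was -0.99 ± 0.15 and -1.18 ± 0.48, a difference of -0.19 that turned to 0.08 without MC-21 replicate 4. The log2 ratio of Rel to Rela was -4.09 ± 0.44 and -3.58 ± 0.29, and it overlapped as well.

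**Figure D3:**
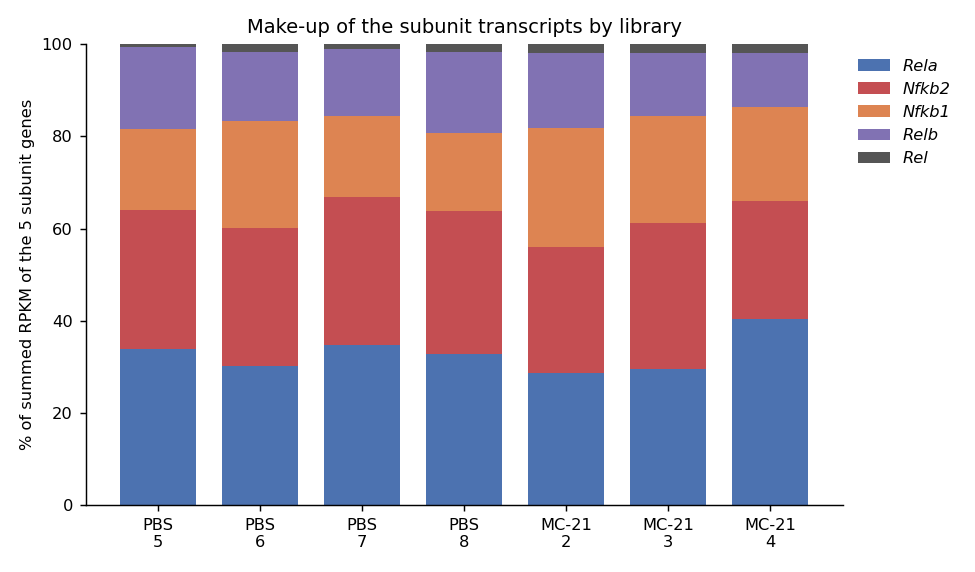
Percentage of each NF-κB subunit gene in the summed RPKM of the 5 subunit genes, 1 stacked bar for each library of PBS (replicates 5 to 8) and MC-21 (replicates 2 to 4) neutrophils. On this scale Rela and Nfkb2 are the 2 largest segments of every bar, and Rel is the thin segment on top, at 0.721 to 1.92%.

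The 2 feedback genes with the largest differences were higher in MC-21 neutrophils. Tnfaip3 encodes A20, a ubiquitin-editing enzyme that switches off signalling upstream of the I-κB kinases (mm9 chr10:18720716-18735463, minus strand). Tnfaip3 had 18.3, 32.2, 36.4 and 25.1 RPKM in PBS replicates 5 to 8 and 47.0, 57.6 and 45.4 RPKM in MC-21 replicates 2 to 4. All MC-21 values exceeded all PBS values, and the PBS libraries differed among themselves by more than the MC-21 libraries did. The level was 1.80-fold higher in MC-21 neutrophils (log2 fold change 0.85, 95% confidence interval 0.33 to 1.37, unadjusted p = 0.00460, adjusted p = 0.156 with limma). The unadjusted p was under 0.05 in all 14 alternatives, and the adjusted p lay between 0.0851 and 0.375 in them.

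Nfkbia (mm9 chr12:56590398-56593634, minus strand) had 983, 1684, 1230 and 997 RPKM in PBS replicates 5 to 8 and 1943, 1637 and 1618 RPKM in MC-21 replicates 2 to 4. The groups overlapped through PBS replicate 6, which was above MC-21 replicates 3 and 4. The log2 fold change was 0.53 (95% confidence interval 0.10 to 0.96, unadjusted p = 0.0211, adjusted p = 0.264 with limma). Without PBS replicate 6 it was 0.70 (adjusted p = 0.0705 with limma) and the groups did not overlap, while the unadjusted p was above 0.05 without MC-21 replicate 2, PBS replicate 5 or PBS replicate 8, with log2 fold changes of 0.45, 0.44 and 0.45. The log2 ratio of Nfkbia to Rela was 4.70 ± 0.43 in PBS (SD, n = 4) and 5.52 ± 0.40 in MC-21 neutrophils (SD, n = 3), a difference of 0.82 with overlap between PBS replicate 6 (5.30) and MC-21 replicate 4 (5.06). The log2 ratio of Tnfaip3 to Nfkbia, the 2 feedback genes, was -5.41 ± 0.31 and -5.09 ± 0.27 and overlapped.

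The other inhibitors had no detectable difference, and their intervals were wide. Nfkbie encodes I-κBε, a slower inhibitor of the same type (mm9 chr17:45692665-45700118, plus strand). Nfkbie had 19.9, 21.8, 25.6 and 19.5 RPKM in PBS replicates 5 to 8 and 18.4, 20.9 and 28.0 RPKM in MC-21 replicates 2 to 4, so the lowest and the highest library were both from MC-21 mice (log2 fold change 0.03, 95% confidence interval -0.38 to 0.45). Nfkbiz encodes I-κBζ, a nuclear cofactor that the pathway induces (mm9 chr16:55811488-55839012, minus strand). Nfkbiz had 25.3, 46.9, 63.4 and 35.6 RPKM in PBS replicates 5 to 8 and 48.1, 30.3 and 40.4 RPKM in MC-21 replicates 2 to 4. The PBS libraries alone spanned more than the MC-21 libraries, and the log2 fold change was -0.06 (95% confidence interval -0.71 to 0.60).

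Bcl3 encodes a nuclear I-κB protein that binds p50 and p52 dimers (mm9 chr7:20393811-20408119, minus strand). Bcl3 had 82.2, 87.4, 84.6 and 54.3 RPKM in PBS replicates 5 to 8 and 83.6, 49.3 and 62.5 RPKM in MC-21 replicates 2 to 4. PBS replicate 8 was apart from the other 3 PBS libraries, and the groups overlapped (log2 fold change -0.25, 95% confidence interval -0.75 to 0.25, unadjusted p = 0.294 with limma). The value was -0.44 without MC-21 replicate 2, -0.41 without PBS replicate 8 and -0.07 without MC-21 replicate 3. The annotation places Gm16174 and Gm16175 on the other strand of Bcl3, and since the sources used here do not state whether reads were counted by strand, reads of these genes cannot be told apart.

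**Figure D4:**
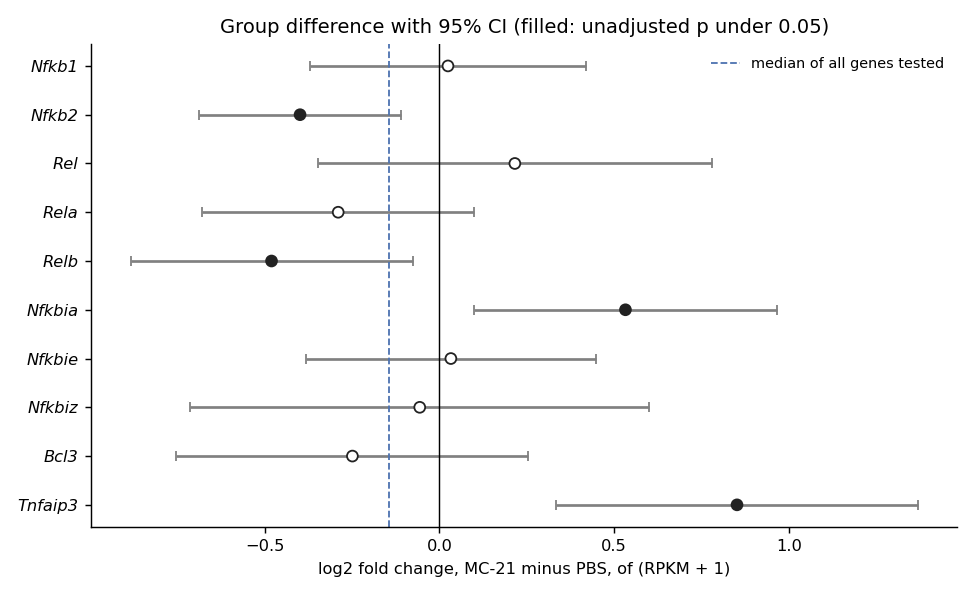
Difference between MC-21 and PBS neutrophils on the log2(RPKM + 1) scale for the 10 genes, with 95% confidence intervals from limma, filled where the unadjusted p was under 0.05, and the median of all genes tested as a dashed line (-0.15). Nfkb2 and Relb lie below 0 and Nfkbia and Tnfaip3 above it with intervals that leave out 0, and Tnfaip3 is the farthest from 0.

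Beside these genes, 88 others of the pathway were examined in 4 lists, and 81 of them passed the filter on low values. None of the 81 had an adjusted p under 0.05 with limma, and 12 had an unadjusted p under 0.05, 11 of them higher and 1 lower in MC-21 neutrophils. Over all genes 14.7% had such a p, 3.59% higher and 11.2% lower, so the total of 12 of 81 is near the background. In 8 of the 81 the values of the groups did not overlap, all 8 with MC-21 higher. Over the 9594 genes tested, 13.3% did not overlap, 297 of them higher and 983 lower in MC-21 neutrophils. Of the other I-κB genes, Nfkbid, Nfkbib and Nfkbil1, 0 of 3 had an unadjusted p under 0.05. Nfkbid, a nuclear I-κB protein, had 154.5 ± 18.9 RPKM in the 4 PBS libraries and 144.1 ± 5.83 RPKM in the 3 MC-21 libraries (mean ± SD). Nfkbib had 24.3 ± 3.99 and 25.1 ± 8.76 RPKM, and Nfkbil1 3.38 ± 0.816 and 3.23 ± 0.934 RPKM. Their median log2 fold change was -0.05.

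Of the kinases and adaptors, 28 of 30 were tested, and 1 had an unadjusted p under 0.05, where 14.7% of all genes did. This was Map3k14, which encodes NIK, the kinase that starts the processing of p100. Map3k14 had 7.80, 7.77, 5.77 and 8.53 RPKM in PBS replicates 5 to 8 and 13.1, 10.4 and 11.1 RPKM in MC-21 replicates 2 to 4, with no overlap (log2 fold change 0.57, unadjusted p = 0.0115, adjusted p = 0.215 with limma). Its difference was opposite in sign to those of Nfkb2 and Relb. The next in order of p were Traf5, an adaptor of TNF-family receptors, with a log2 fold change of -0.54 (unadjusted p = 0.0876 with limma), and Map3k7, which encodes the kinase TAK1, with -0.35 (unadjusted p = 0.101 with limma). The median of the 28 was -0.11.

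Of the list of other negative regulators, 18 of 20 were tested. This list also holds Rbck1, Sharpin and Rnf31, the genes of the linear ubiquitin ligase, so it is not made of negative regulators alone. Tle1, a corepressor that binds NF-κB, had 4.63, 3.43, 2.66 and 4.00 RPKM in PBS replicates 5 to 8 and 7.52, 11.8 and 10.1 RPKM in MC-21 replicates 2 to 4 (log2 fold change 1.21, adjusted p = 0.0519 with limma). The groups did not overlap, and the study had picked Tle1 from these libraries. Zc3h12a, which encodes regnase-1, a nuclease that degrades transcripts of cytokines and is itself induced by NF-κB, had 28.4, 48.7, 33.8 and 39.7 RPKM in PBS replicates 5 to 8 and 67.2, 58.2 and 78.2 RPKM in MC-21 replicates 2 to 4. Its groups did not overlap either (log2 fold change 0.85, unadjusted p = 0.00190, adjusted p = 0.109 with limma). Rbck1, which encodes the HOIL-1 subunit of the linear ubiquitin ligase, came next by p, with -0.32 (unadjusted p = 0.103 with limma). Tle1 and Zc3h12a were the 2 of 18 genes with an unadjusted p under 0.05, which 14.7% of all genes had. The median of the list was -0.14, close to that of all genes.

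Of the genes known to be induced by NF-κB, 32 of 35 were tested, and 9 had an unadjusted p under 0.05 (8 higher and 1 lower, beside 3.59% and 11.2% of all genes). Il1rn, the secreted antagonist of interleukin 1, which the study had also picked from these libraries, had 54.4, 145.6, 86.1 and 105.2 RPKM in PBS replicates 5 to 8 and 235.7, 177.7 and 188.0 RPKM in MC-21 replicates 2 to 4 (log2 fold change 1.10, adjusted p = 0.144 with limma). Cxcl3, a chemokine for neutrophils, had 84.6, 171.4, 198.0 and 127.5 RPKM in PBS replicates 5 to 8 and 280.2, 240.7 and 360.3 RPKM in MC-21 replicates 2 to 4 (log2 fold change 1.06, adjusted p = 0.144 with limma). Neither gene overlapped between the groups. Bcl2a1b, an anti-apoptotic gene of the A1 family, showed a difference of 1.06 on the log2 scale (adjusted p = 0.131 with limma). The study had picked this gene from these libraries too. Its groups overlapped, as PBS replicate 6 had 228.8 RPKM and MC-21 replicate 4 had 226.3 RPKM. Near-identical copies of Bcl2a1b exist, so its value is uncertain. The median of the 32 genes was 0.07, with 18 above and 14 below 0.

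**Figure D5:**
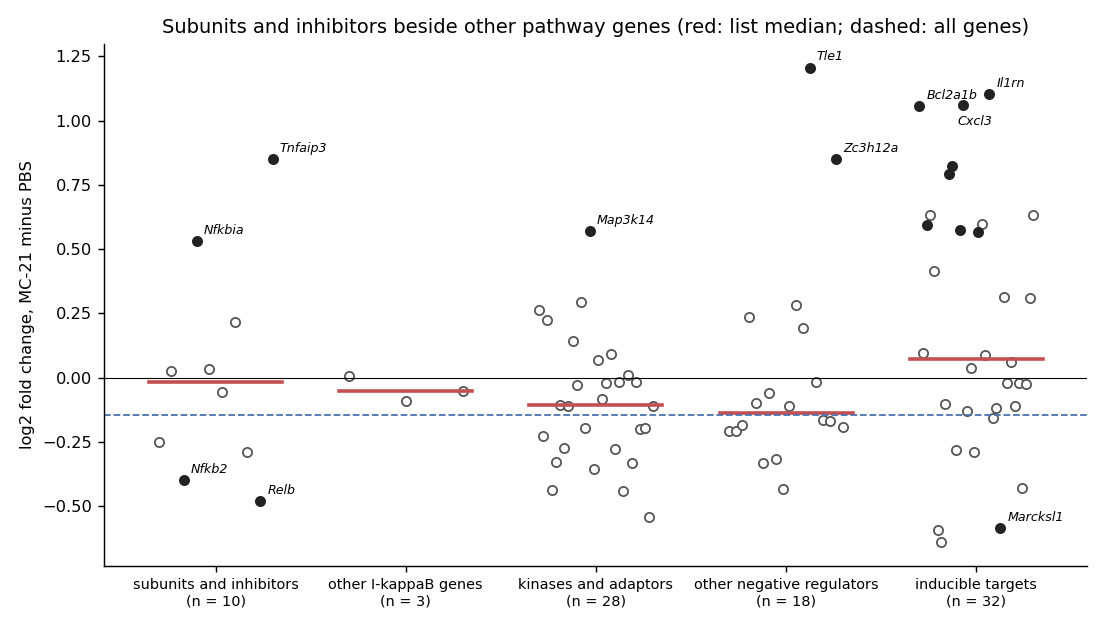
Log2 fold change, MC-21 minus PBS, of the 10 subunit and inhibitor genes beside the tested genes of the 4 other lists (n = 3, 28, 18 and 32), filled where the unadjusted p was under 0.05, with the list medians in red and the median of all genes tested as a dashed line. The list medians lie between -0.14 and 0.07, and Tle1 is the highest point.

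Markers of some other cells differed between the groups, most of all those of monocytes and macrophages. Of the 16 tested monocyte and macrophage markers, 15 were below 0, 11 reached an unadjusted p under 0.05 and 5 of these an adjusted one, all lower in MC-21 neutrophils. Over all genes 11.2% were lower at such an unadjusted p. The summed level of the whole list of 18 was 1835 to 2216 RPKM in PBS and 1054 to 1544 RPKM in MC-21 neutrophils, mostly Apoe with 1500 ± 198 RPKM (SD, n = 4) and 961 ± 212 RPKM (SD, n = 3). Complement genes of macrophages fell together, with C1qb at 131.6 to 176.5 and 52.5 to 65.2 RPKM and C1qa at 99.1 to 128.7 and 38.9 to 54.3 RPKM (adjusted p = 0.00816 and 0.0139 with limma). Ccr2, the receptor that MC-21 binds, had 1.91 to 3.26 RPKM in PBS neutrophils and was at 0 in MC-21 replicate 3 and at 0.390 and 0.200 RPKM in replicates 2 and 4. Csf1r had 62.2 ± 16.6 RPKM in PBS and 40.7 ± 8.12 RPKM in MC-21 neutrophils (unadjusted p = 0.0345 with limma), and Adgre1 12.9 ± 6.49 and 14.9 ± 9.73 RPKM.

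Dendritic cell markers summed to 6.95 to 11.9 RPKM in PBS and 4.32 to 6.62 RPKM in MC-21 neutrophils. Of the 3 tested, Ccr7, itself a target of NF-κB in dendritic cells, was the one with an unadjusted p under 0.05 (2.01 to 7.81 RPKM against 0.992 to 1.46 RPKM), and Xcr1, Siglech and Cd209a were at 0 in some libraries. Lymphocyte markers summed to 21.2 to 45.7 RPKM and 16.7 to 28.2 RPKM, and 6 of the 7 tested genes were below 0. Lower at an unadjusted p under 0.05 were 3 of them, among these Cd79b (log2 fold change -0.78). Nkg7 had -0.23 (unadjusted p = 0.627 with limma), and Gzma went the other way with 0.97 (unadjusted p = 0.130 with limma). Cd79a, Ms4a1, Cd3g, Klrb1c, Gzma and Ncr1 were at 0 in some libraries. Neutrophil markers summed to 22685 to 34693 RPKM in PBS and 33936 to 48478 RPKM in MC-21 neutrophils. Nfkb2 and Relb thus differed in the direction of the monocyte, dendritic cell and lymphocyte lists, and Nfkbia and Tnfaip3 in that of the neutrophil list. The direction of Nfkb2 and Relb was also that of most genes, with 6655 of the 9594 tested below 0. The endothelial and hepatocyte lists shared it, with median log2 fold changes of -0.336 and -0.209. The part of these cells in the values of the 10 genes was not tested.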

How the data were processed

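RNA-seq of liver neutrophils was analysed from 4 PBS and 3 MC-21 mice, 1 library per liver. The authors prepared 3′ libraries, sequenced them on an Illumina NextSeq, mapped reads to mm9 with HISAT 0.1.5, converted them with SAMtools and deposited RPKM values per gene from Partek 6.6, as the study's methods and the submitters' processing notes give it. The transcript annotation, strand and use of molecular barcodes are not given in the sources used here.

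Differences are MC-21 minus PBS on log2(RPKM + 1), which understates changes of low genes, for the 9594 genes whose mean was 1 RPKM or more. They were tested with limma 3.58.1 (trend, two-sided) under R 4.3.3, and p-values were adjusted by Benjamini-Hochberg over these genes. Since values are RPKM, no count test was run. Ratios and shares are descriptions without a test.

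Depth was read from the steps between low RPKM values: 375 of 768 genes (48.8%) lay within 1% of the depth that occurred most often. Reads of Nfkbia were approximated from its longest transcript, and Poisson 95% intervals cover counting error only. Coordinates are mm9 (GENCODE vM1). Start windows are RefSeq, GRCm38.p6.

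The 10 genes and all lists were chosen with earlier results of these data known. The rule for naming took the 10 genes and, of each pathway list, those with an adjusted p under 0.05 or else the 3 with the lowest p. Of each marker list it took the 3 highest by mean RPKM, plus Csf1r, Ccr2 and Adgre1. Fewer were named for neutrophils, dendritic cells, endothelium, hepatocytes, and eosinophils or basophils. Outside the rule, markers at 0 in some libraries and some pathway genes were also named. The alternatives were a pseudocount of 0.1, no filter, a minimum mean of 5 RPKM, median centring, quantile normalization, no trend, the study's cutoffs, RPKM times transcript length for the ratios, and leaving out each library. Leaving out MC-21 replicate 2 with PBS replicate 6 was added after the data were seen.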

Additional observations from a re-analysis of the deposited data

Results flagged for a closer look

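Dixon's ratio of the gap to the range was computed in the 4 PBS libraries for the level of each of the 10 genes, the 5 log2 ratios and the 5 subunit percentages, and chance passes its 95% limit in about 1 of 20 groups. Of 20 such groups, 5 passed. PBS replicate 6 stood apart in Nfkb1, with a ratio of 0.941 (31.9 RPKM against 23.3 to 23.8), and with it in the log2 ratio of Nfkb2 to Nfkb1 (0.838) and in the percentage of Nfkb1 (0.886), which hold the same values and are not separate evidence. PBS replicate 6 was also the low library of Rela, with a ratio of 0.945 (41.7 RPKM against 46.1 to 46.3). PBS replicate 8 stood apart in Bcl3, with a ratio of 0.843 (54.3 RPKM against 82.2 to 87.4). Groups of 3 are not tested this way.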

How the results depend on the processing

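In every alternative 0 of the 10 genes had an adjusted p under 0.05, the study's cutoffs included. The count with an unadjusted p under 0.05 was 4, went to 2 with median centring, and lay between 2 and 4 over the fits that leave out 1 library, with 2 without PBS replicate 5 or PBS replicate 8. The share of all genes at such a p fell as well. It was 14.7% in the main fit, 11.5% with median centring, 11.9% without PBS replicate 5 and 10.1% without PBS replicate 8. Genes whose groups did not overlap went from 2 to 4 (33.5% of all genes) when MC-21 replicate 2 and PBS replicate 6 were both left out. Among the other pathway genes, 1 (Tle1) had an adjusted p under 0.05 with a minimum mean of 5 RPKM (0.0475), quantile normalization (0.0326) or median centring (0.0316), and between 0 and 3 did when a library was left out, the 3 being Csf1, Bcl2a1b and Il1rn without PBS replicate 6. The count over all genes was 60, 6 without a filter, 21 without both libraries and between 9 and 102 without 1 library. The sign of values near 0 changed: Nfkbiz went from -0.06 to 0.029 with quantile normalization and 0.11 with median centring. When each library was left out, it ranged from -0.28 to 0.16, Nfkb1 from -0.10 to 0.13 and Nfkbie from -0.13 to 0.16. The causes were not tested. The differences of Nfkb2, Relb, Rela, Bcl3, Nfkbia, Tnfaip3 and Rel kept their sign in each alternative that gave them a value (a minimum mean of 5 RPKM leaves out Rel). Depth limits Rel most.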

Other observations

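PBS replicate 6 and MC-21 replicate 2, the libraries with the most Nfkb1, also had the most Ptgs2, the inducible cyclooxygenase, in their groups (36.4 and 45.8 RPKM, against 7.30 to 18.9 RPKM in the other 5 libraries). The same 2 libraries had the highest Il1a (4.87 and 9.08 RPKM, against 1.28 to 3.05) and Vcam1 (9.28 and 14.2 RPKM, against 0.639 to 4.65). Cd83 had 4.77 RPKM in PBS replicate 6 and 4.58 RPKM in MC-21 replicate 2, with PBS replicate 7 close to them at 4.39 RPKM. These genes were chosen after their values were seen, and other genes induced by NF-κB did not share the pattern. Il1b was lowest in PBS replicate 6 (5868 RPKM, against 6954 to 8005 RPKM in the other PBS libraries). Tnf and Cxcl2 were highest of the PBS group in PBS replicate 7 (145.1 and 12755 RPKM). How many of all genes were highest in these libraries was not counted. MC-21 replicate 2 was the highest of its group in 7 of the 10 NF-κB genes. It also had the highest median log2 value of all tested genes in its group (3.07, against 3.05 and 2.89 in replicates 3 and 4). The share of all genes that were highest in this library was not counted. PBS replicate 6 did not stand out in this way, being the highest of its group in 3, as PBS replicate 7 was, and PBS replicate 8 in 4.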
